A study of Mus musculus with 3 samples.

Results

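Timd4 resident cardiac macrophages were examined in single cells sorted from mouse hearts. A cell was a member when it held at least 2 unique molecular identifiers (UMIs, each standing for 1 captured RNA molecule) of Timd4, none of Ccr2, and at least 40 UMIs of C1qa, C1qb and C1qc together per 10000. All cells considered had at least 500 detected genes and at most 10% mitochondrial UMIs. Of 6913 cells that passed the C1q gate, 482 were members, out of 8283 barcodes in all. Members were thus chosen by their measured Timd4, Ccr2 and C1q counts, and those levels are given as description only.

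The day 11 library held macrophages taken 11 days after myocardial infarction (MI) from Cx3cr1CreER-YFP/+:R26Td/+ mice, whose Cx3cr1 gene carries an inducible Cre with YFP, and whose R26 locus carries tdTomato that Cre switches on. The steady-state macrophage library came from uninjured mice of that genotype, and the macrophage and DC (dendritic cell) library from uninjured wild-type mice. All mice were C57BL/6 and 8 to 12 weeks old. The sort took live CD45+ leukocytes, of which CD64+CD11b+ ones counted as macrophages and CD64- ones with CD11c and MHC class II as DCs. Flavopiridol, a transcription inhibitor, was present during digestion in all groups, each group had 1 library, and how many animals were pooled is not in the labels. Spread between animals is therefore unknown, no test across samples was made, and every interval below is a 95% interval that covers counting error only.

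Timd4 encodes TIM-4, a receptor that binds phosphatidylserine on dying cells and marks macrophages that keep their numbers by division in the tissue. CCR2 is the chemokine receptor that brings monocytes out of the bone marrow, and its absence is used to set resident macrophages apart from monocyte-derived ones. Resident cardiac macrophages that carry TIM-4 are usually also described by LYVE1, a hyaluronan receptor, and FOLR2, a folate receptor, and by low MHC class II, the molecules that present antigen to T cells.

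Members made up 1.95% of C1q-gated cells at day 11 (86 of 4406; exact binomial interval 1.56 to 2.41), against 19.8% in the steady-state macrophage library (341 of 1722; 17.9 to 21.8) and 7.01% of those from the macrophage and DC library (55 of 785; 5.32 to 9.02). The share was lowest at day 11, and the 3 intervals did not overlap. A cut at 2 UMIs reads depth, and other C1q-gated cells had a median of 8181 UMIs at day 11, against 10783 and 4806.5 UMIs in the steady-state macrophage library and the macrophage and DC library. With every cell thinned to 3000 UMIs, the shares were 0.693% at day 11 (0.468 to 0.987), against 6.89% (5.74 to 8.19) and 4.27% (2.86 to 6.12) in these 2 libraries, so the order stayed while the intervals of the steady-state libraries overlapped. Thinning left out 84, 0 and 172 cells that were shallower. Summed over all C1q-gated cells, Timd4 stood at 15.2 counts per 1e+06 UMIs (CPM) at day 11, against 116 and 61.8 CPM. C1q-gated cells with no Timd4 UMI numbered 4055 at day 11, against 748 and 644, and the number of members per heart was not measured. Fewer cells with Timd4, less Timd4 per cell and more C1q-gated cells of other kinds cannot be fully told apart by such a share.

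**Figure D1:**
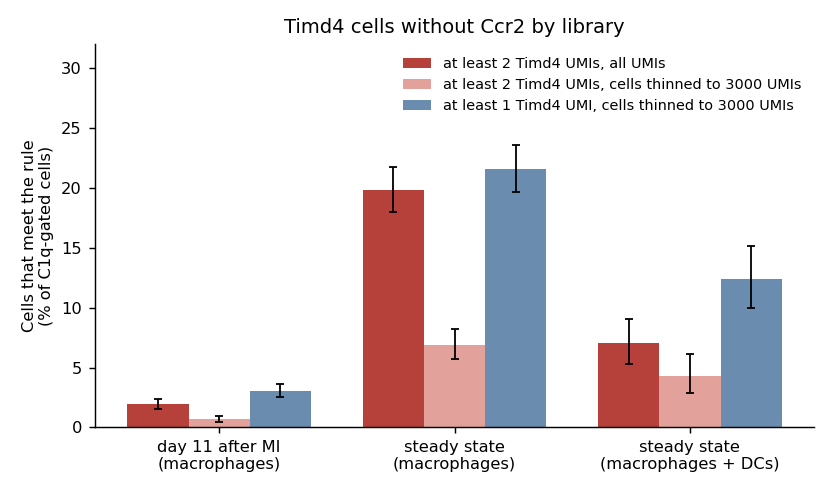
Percent of C1q-gated cells (y axis) that had no Ccr2 UMI and met the Timd4 rule, by library (x axis), with exact binomial 95% intervals as error bars. Bars show the rule on all UMIs, the rule after thinning to 3000 UMIs, and at least 1 Timd4 UMI after thinning, where the shares were 3.05% at day 11, against 21.6 and 12.4%.

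The cut passes through a continuous range of Timd4. At day 11, 35 members held exactly 2 Timd4 UMIs, against 118 and 20 in the steady-state macrophage library and the macrophage and DC library, while 120, 183 and 69 cells just outside held 1 UMI and no Ccr2. No member lay near the C1q cut, the lowest being at 145, 92.2 and 141 UMIs per 10000. The Ccr2 condition removed many cells. Of C1q-gated cells with at least 2 Timd4 UMIs, 58 of 144 also held Ccr2 at day 11 (40.3%). The counts were 282 of 623 (45.3%) and 6 of 61 (9.84%) in the steady-state macrophage library and the macrophage and DC library. Among C1q-gated cells with no Timd4 UMI, 50.6, 49.3 and 47.4% held Ccr2, so the gap was widest in the macrophage and DC library. Those Timd4 cells with Ccr2 had medians of 15673, 20314.5 and 5886.5 UMIs, against 9731.5, 11131 and 6255 UMIs in members, so they were deeper in 2 of the 3 libraries. Scrublet, a doublet score, marked 5.17, 3.19 and 16.7% of them (3, 9 and 1 cells), against 2.33, 1.17 and 0% of members. Of all other C1q-gated cells, which include them, it marked 4.0, 1.5 and 2.5%. Whether the Timd4 cells with Ccr2 are 2 cells in 1 droplet was not tested further.

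The label was checked against its markers. Lyve1 was detected in 82.6% of members at day 11 (71 of 86), against 12.3% of other C1q-gated cells and 1.5% of cells that failed the C1q gate. In the steady-state macrophage library it was detected in 93.5% of members and 65.1% of others, against 17.8% of failing cells, and in the macrophage and DC library in 87.3% and 18.2%, against 1.83%. After thinning, the shares of members were 67.1, 74.2 and 82.7%, against 7.01, 39.8 and 14.7% of others and 0.394, 8.89 and 0.740% of failing cells. Median depths of failing cells were 8624, 9403 and 9887.5 UMIs. Of Lyve1, Folr2, Vsig4 and Cbr2, at least 3 were detected in 83.7, 94.7 and 89.1% of members in the 3 libraries. None was detected in 1, 0 and 2 members. At least 3 were detected in 10.7, 64.2 and 17.9% of others. In the Timd4 cells with Ccr2, which are among those others, it was 81.0, 96.1 and 66.7%, so this trait is not particular to members. The macrophage receptor gene Csf1r stood at 1198, 1197 and 918 CPM in members, against 470, 344 and 101 CPM in cells failing the gate.

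Markers of other cells were then summed. The rule set Ccr2 to 0 in members but not in others. The 5 monocyte markers besides Ccr2 came to 27.3, 58.3 and 5.55 CPM in members, against 131, 174 and 39.5 CPM in others. How far the Ccr2 condition set these sums was not tested. Plac8 was at 23.1, 45.7 and 2.77 CPM in members. The 9 endothelial markers summed to 21.0, 54.5 and 8.32 CPM in members, against 47.8, 71.8 and 18.9 CPM in others, which matters for Lyve1 because lymphatic endothelium also makes it. Prox1, the factor that defines lymphatic endothelium, was at 0 in members at day 11 and in the macrophage and DC library and at 1.10 CPM in the steady-state macrophage library. Haemoglobin stood out in the steady-state macrophage library, where 1 member held 8203 of 8317 haemoglobin UMIs, 31.9% of its own UMIs. The 9 cardiomyocyte markers summed to 127, 118 and 55.5 CPM in members, against 52.0, 136 and 98.6 CPM in others, and the 5 B cell markers to 87.0, 42.4 and 11.1 CPM, against 43.6, 63.7 and 19.9 CPM. Both lists were thus higher in members than in others at day 11 and lower in the steady-state libraries, and their part in the results was not tested. The 8 fibroblast markers summed to 205, 200 and 97.1 CPM, against 293, 234 and 183 CPM, mostly from Gsn. The 6 markers of type 1 conventional DCs summed to 345, 327 and 286 CPM, against 398, 424 and 487 CPM, with Irf8 or Naaa highest and Clec9a at 0 in members at day 11 and in the macrophage and DC library. The libraries shared 7 to 11 barcodes in pairs, none of them a member in both.

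Members were then compared with the other C1q-gated cells of the same library, which asks what sets Timd4 cells apart from the macrophages around them. Receptors and secreted products of resident macrophages were higher and MHC class II was lower. Among 2295 genes with at least 50 CPM in either pool in every library, 7 were at least 2-fold higher in all 3 libraries (0.305% of genes) and 7 at least 2-fold lower (0.305%). The higher genes were Vsig4, Lyve1, Ednrb, Fcna, Ltc4s, Folr2 and Colec12, and the lower ones Mmp12, Gngt2, Ramp1, Cd9, H2-Eb1, Il1b and Emb. In single libraries the shares higher and lower were 3.75 and 2.09% at day 11, 0.404 and 0.404% in the steady-state macrophage library, and 6.33 and 3.05% in the macrophage and DC library.

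These counts were set by the steady-state macrophage library. Its other cells included 351 with 1 Timd4 UMI and the 282 with Timd4 and Ccr2, and it had the fewest genes past 2-fold. Without that library 69 genes were higher and 30 lower, and with others limited to cells without Timd4 the counts were 26 and 19. When the Ccr2 condition was dropped, 8 genes were higher and 0 lower in all 3 libraries. With others limited to cells without Ccr2 they were 10 and 2, so the count of lower genes changed with that condition. Single genes differed in this. At day 11, C1q-gated cells with neither Timd4 nor Ccr2 held 709 CPM of Cd9 and 104 CPM of Mmp12, against 226 and 21.0 CPM in members. For H2-Eb1 the gap there was smaller, at 3542 against 2534 CPM. Leaving out a library and dropping the Ccr2 condition were chosen after seeing the data.

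Vsig4, a complement receptor that takes up particles coated with C3b, had the largest fold of the 7 higher genes in the steady-state macrophage library. It stood at 137 CPM in members at day 11, against 11.1 CPM in others, and at 144 against 29.8 CPM and 333 against 32.1 CPM in the steady-state macrophage library and the macrophage and DC library. The ratios were 12.3 (10.1 to 15), 4.82 (4.30 to 5.41) and 10.4 (8.03 to 13.4). Vsig4 was thus higher in members than in all others in every library while only 20 of 86, 106 of 341 and 18 of 55 members held a UMI of it. Timd4 cells with Ccr2, which are among the others, held 167 CPM of Vsig4 at day 11 (142 to 195). In the steady-state macrophage library they held 45.3 CPM. At day 11 high Vsig4 is therefore not particular to members. After thinning, 17.6, 16.7 and 26.9% of members held one, against 1.81, 5.65 and 4.86% of others and 0, 2.22 and 0.317% of cells failing the gate.

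Lyve1 stood at 584, 760 and 791 CPM in members of the 3 libraries, against 45.7, 315 and 125 CPM in others. Folr2 stood at 1800, 1936 and 2050 CPM in members, against 249, 927 and 388 CPM. Fcna, which encodes ficolin A of the lectin complement pathway, stood at 237, 241 and 316 CPM, against 31.7, 107 and 31.3 CPM. For these genes the members varied less between libraries than the others did. Members met the same Timd4 and Ccr2 cut in every library while others were all remaining cells, so stability of the members is not read from this. Ltc4s, the enzyme that makes leukotriene C4, was 4.86-fold (4.51 to 5.23), 2.21-fold (2.11 to 2.30) and 7.23-fold (6.33 to 8.26) higher in members. Ednrb, an endothelin receptor, was 6.81-fold, 2.30-fold and 7.32-fold higher, and Colec12, a scavenger receptor of the collectin family, 9.51-fold, 2.05-fold and 4.81-fold.

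**Figure D2:**
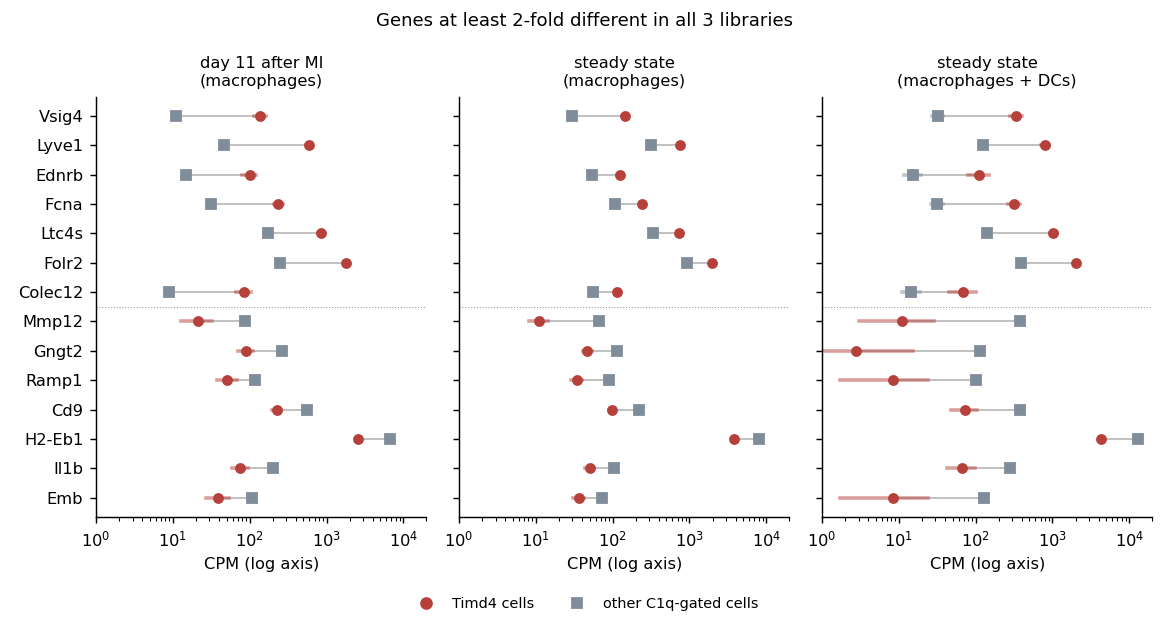
Level in CPM (x axis, log scale) of the 14 genes higher or lower by 2-fold or more in every library, for Timd4 cells (circles) and other C1q-gated cells (squares), 1 panel per library. Thick lines are 95% Poisson intervals, and Vsig4 at the top stood at 137, 144 and 333 CPM in Timd4 cells.

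The list of 25 resident receptors and products, which holds several markers of the label, followed these genes. At day 11, 17 of 22 measured genes were at least 2-fold higher in members and 0 lower, with a median log2 ratio of 2.11 beside 0.11 over all 5383 genes, of which 3.64% were higher and 2.1% lower. In the steady-state macrophage library 7 of 22 were higher, with a median of 0.83 beside 0.03, where 0.371% of all genes were higher and 0.669% lower. In the macrophage and DC library 22 of 23 were higher, with a median of 1.80 beside 0.21, where 9.99% were higher and 4.05% lower. F13a1, the coagulation factor XIII A chain, stood at 1714, 1917 and 1795 CPM in members, against 312, 1068 and 428 CPM in others. Cd163, the receptor for haemoglobin bound to haptoglobin, was 6.83-fold, 1.85-fold and 3.41-fold higher. Slc40a1, the iron exporter ferroportin, was 5.78-fold, 1.80-fold and 5.38-fold higher.

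For lineage transcription factors the counts lay near those of all genes. Of 17, 17 and 19 measured lineage factors, 1, 0 and 2 were at least 2-fold higher in members and 0, 1 and 1 lower, where 3.64, 0.371 and 9.99% of all genes were higher. Maf, a factor known to restrain division of macrophages, stood at 556, 650 and 560 CPM in members, against 271, 484 and 253 CPM in others, ratios of 2.05, 1.34 and 2.21.

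Promoters are shown for 3 of these genes because MAF binds a short half-site, TGCTGA, read as TCAGCA on the other strand. Both spellings were searched in the window from 250 bases before to 50 after each start, in RefSeq sequence of GRCm38.p6, and capitals mark the matches.
Timd4, chr11:46810549-46810848, plus strand: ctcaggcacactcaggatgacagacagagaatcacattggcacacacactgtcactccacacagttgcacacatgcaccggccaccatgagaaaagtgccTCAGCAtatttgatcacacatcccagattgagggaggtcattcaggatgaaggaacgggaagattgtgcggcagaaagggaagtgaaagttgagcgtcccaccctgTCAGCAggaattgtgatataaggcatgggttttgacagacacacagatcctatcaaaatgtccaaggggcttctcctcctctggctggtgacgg
Vsig4, chrX:96293389-96293688, minus strand: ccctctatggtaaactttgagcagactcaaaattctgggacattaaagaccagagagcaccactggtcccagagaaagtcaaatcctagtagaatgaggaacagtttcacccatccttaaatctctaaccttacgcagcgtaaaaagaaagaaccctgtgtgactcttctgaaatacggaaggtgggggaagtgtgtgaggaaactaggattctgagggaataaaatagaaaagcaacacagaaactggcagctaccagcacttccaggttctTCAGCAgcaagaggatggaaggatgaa
Fcna, chr2:25627925-25628224, minus strand: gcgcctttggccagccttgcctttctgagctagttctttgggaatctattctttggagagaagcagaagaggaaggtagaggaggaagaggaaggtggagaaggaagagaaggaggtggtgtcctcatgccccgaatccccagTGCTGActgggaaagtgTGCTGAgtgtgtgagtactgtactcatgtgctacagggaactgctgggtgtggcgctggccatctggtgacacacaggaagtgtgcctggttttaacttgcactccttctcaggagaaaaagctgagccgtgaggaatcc

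Of 9 genes looked up (Timd4, the 7 higher genes and Cbr2), 7 had an entry. The half-site stood in 7 of their 8 promoters, in Timd4 and Fcna at 2 places, and Ltc4s had none. The same letters stood in 19.5% of 32851 mouse promoters of this length. The core GAGGAA, read on the other strand as TTCCTC and bound by the macrophage factor PU.1, stood in 4 of the 8 and in 28.3% of all. A match describes the letters in this window and is not a site in use.

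MHC class II was lower in members. H2-Eb1, a class II beta chain, stood at 2534 CPM in members at day 11, against 6606 CPM in others, and at 3792 against 7958 CPM and 4252 against 12786 CPM in the steady-state macrophage library and the macrophage and DC library. Over the MHC class II list the median log2 ratio was -1.20, -0.93 and -1.44, and 4 of 7, 2 of 8 and 9 of 9 measured genes were at least 2-fold lower. In the same libraries 2.1, 0.669 and 4.05% of all genes were lower. Cd74, the invariant chain, stood at 10022, 14091 and 15748 CPM in members, against 24372, 27859 and 44196 CPM in others.

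The rule bars Ccr2 from members but not from others, and at day 11 much of this gap went with that condition. C1q-gated cells with neither Timd4 nor Ccr2 held 3542 CPM of H2-Eb1 and 14291 CPM of Cd74 at day 11, closer to the members than all others were. In the steady-state macrophage library such cells held 7699 and 28306 CPM, and in the macrophage and DC library 11372 and 41672 CPM, near the levels of all others. Timd4 cells with Ccr2 held 5521, 6655 and 11612 CPM of H2-Eb1, above the members in every library.

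Single members varied widely. Summed UMIs of H2-Aa, H2-Ab1, H2-Eb1 and Cd74 had a median over members of 68.7, 170 and 149 per 10000, against 374, 563 and 953 in others. Of members, 82.6, 85.9 and 90.9% lay below the median of the others. Yet the central 80% of members spanned 20.4 to 637 per 10000 at day 11, against 54.4 to 597 and 30.8 to 943. Members with a Vsig4 UMI had less H2-Aa than members without one, at 2935 against 3449 CPM at day 11. In the steady-state macrophage library this was 3901 against 5360 CPM, and in the macrophage and DC library 3014 against 7468 CPM. Those with a Vsig4 UMI were 20, 106 and 18 cells. They were deeper, with medians of 11348.5, 13609.5 and 7003.5 UMIs, against 9464.5, 10455 and 5912 UMIs. The part of depth and of single cells in this gap was not tested. Free RNA in the droplets was not measured apart, and H2-Aa was detected in 97.8 to 100% of cells failing the gate.

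**Figure D3:**
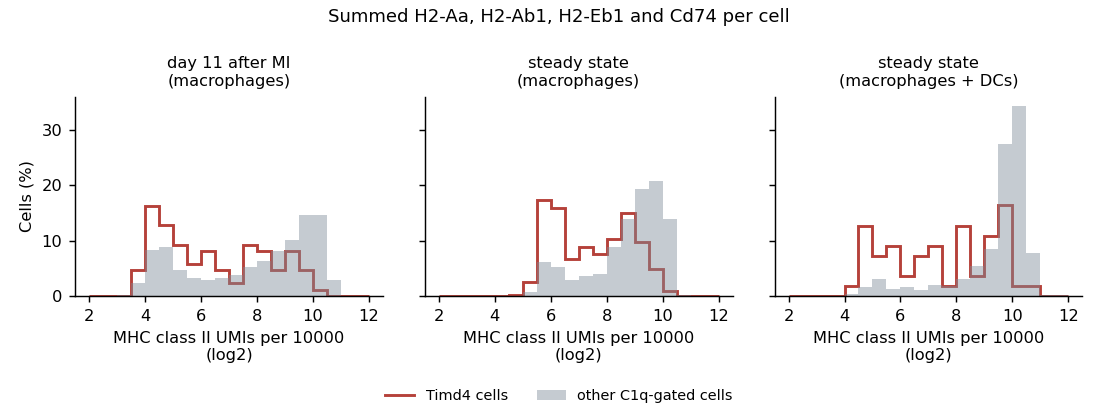
Share of cells (y axis, %) by summed UMIs of H2-Aa, H2-Ab1, H2-Eb1 and Cd74 per 10000 UMIs (x axis, log2, bins of 0.5), for Timd4 cells (line) and other C1q-gated cells (filled), 1 panel per library. Timd4 cells lay mostly to the left, with medians of 68.7, 170 and 149 per 10000, against 374, 563 and 953.

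The other lower genes were Mmp12, Cd9, Il1b, Gngt2, Ramp1 and Emb. Mmp12, the macrophage elastase, stood at 21.0, 11.0 and 11.1 CPM in members, against 87.5, 66.3 and 379 CPM in others. Il1b stood at 74.4, 50.3 and 66.6 CPM, against 201, 104 and 277 CPM. Cd9, a tetraspanin of lipid-handling macrophages, stood at 226, 98.7 and 72.1 CPM, against 564, 218 and 378 CPM. Members were lower than others in each library, and for Mmp12 and Cd9 cells failing the gate were at 176 to 230 CPM and 428 to 873 CPM. Of the recruited monocyte list, 5 of 11, 3 of 10 and 5 of 11 measured genes were at least 2-fold lower and 0 higher. Over all genes 2.1, 0.669 and 4.05% were lower. The rule bars Ccr2 from members but not from others, and the part of that condition in these list counts was not tested. Fn1, fibronectin, was at 34.6, 6.18 and 11.1 CPM in members, against 211, 19.7 and 121 CPM.

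Chemokines differed in both directions at day 11 and in the macrophage and DC library. Ccl24, an eosinophil attractant, was higher in members at 300, 595 and 813 CPM, against 50.2, 332 and 180 CPM in others. Ccl7 was 3.25-fold, 1.45-fold and 2.52-fold higher. Cxcl2, a neutrophil attractant, was lower at 445, 525 and 793 CPM, against 852, 817 and 1532 CPM. Of 16 measured chemokines 5 were at least 2-fold higher and 4 lower at day 11, of 15 in the steady-state macrophage library 0 and 2, and of 16 in the macrophage and DC library 5 and 5. Over all genes 3.64 and 2.1%, 0.371 and 0.669%, and 9.99 and 4.05% were higher and lower.

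Levels were also set out by the number of Timd4 UMIs, in C1q-gated cells with no Ccr2. Lyve1 at day 11 stood at 27.0, 280, 578, 594 and 572 CPM in cells with 0, 1, 2, 3 to 4 and at least 5 Timd4 UMIs. In the steady-state macrophage library it stood at 237, 387, 573, 731 and 984 CPM. In the macrophage and DC library it stood at 160, 515, 586, 921 and 787 CPM. Lyve1 was thus level from 2 Timd4 UMIs at day 11, climbed at every step in the steady-state macrophage library, and was highest at 3 to 4 UMIs in the macrophage and DC library. Folr2 climbed at every step in all 3 libraries, to 2060, 2270 and 2132 CPM at 5 or more UMIs. H2-Aa stood at 4380, 3938, 3028, 3499 and 3398 CPM over the 5 steps at day 11, against 9040, 6103, 5306, 4523 and 4755 CPM in the steady-state macrophage library. It was lower at 2 Timd4 UMIs than at 0 and showed no steady fall beyond that. Depth moved with the steps, with median UMIs of 7419 at 0 and 12607 at 5 or more at day 11, and its part in the order was not tested.

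**Figure D4:**
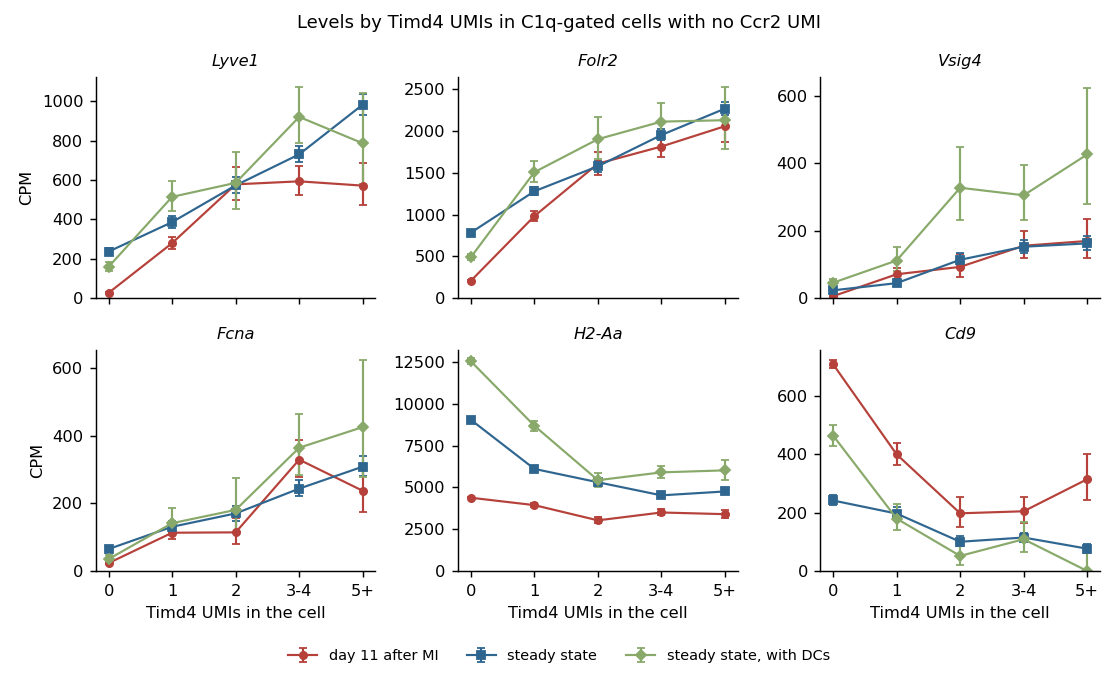
Level in CPM (y axis) of 6 genes by the number of Timd4 UMIs in the cell (x axis), in C1q-gated cells with no Ccr2 UMI, 1 line per library with 95% Poisson intervals. Folr2 climbs at each step, while H2-Aa is lower at 2 Timd4 UMIs than at 0, at 3028 against 4380 CPM at day 11.

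A closer comparison set members against 249 C1q-gated cells with at least 2 Lyve1 UMIs, no Timd4 and no Ccr2. Among 2176 genes, 2 were at least 2-fold higher in members in all 3 libraries and 0 were lower. They were Vsig4, at ratios of 5.17 (3.27 to 8.53), 4.08 (3.01 to 5.67) and 2.64 (1.74 to 4.14), and Fcna, at 2.25, 2.14 and 2.13. H2-Aa differed little, at ratios of 1.01, 0.85 and 1.03. The Lyve1 cells were shallower, with medians of 8454.5, 9233 and 5221 UMIs, and whether some hold Timd4 that was not captured was not tested.

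The comparison of day 11 with steady state asks how Timd4 cells differ between these libraries. With 1 library per group, infarction cannot be told apart from other differences between libraries. The macrophage and DC library also differs from day 11 in genotype and in the cells sorted. Resident genes in members at day 11 stood near the level of the steady-state macrophage library, and a few genes of lipid handling were higher. Among 2692 genes, 12 were at least 2-fold higher at day 11 than in members of both steady-state libraries (0.446%) and 6 at least 2-fold lower (0.223%). Other C1q-gated cells had 1.28% higher and 0.719% lower. The 2 comparisons within each pool share the day 11 library. Of the 12 and 3 genes the naming rule kept in members, 8 and 2 also passed in others. With the member rule applied to thinned cells, which left 30 members at day 11, the 12 and 3 became 55 and 17, and with the top cell of each gene left out the 3 became 6.

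Resident genes in members at day 11 stood near their levels in the steady-state macrophage library, and some stood lower than in the macrophage and DC library. Members met the same Timd4 cut in each library. Their Timd4 was 292 CPM at day 11, against 272 CPM in the steady-state macrophage library and 488 CPM in the macrophage and DC library. A kept resident state is therefore not read from these levels. Of 22 genes of the resident list, 0 were 2-fold higher and 0 lower than in the steady-state macrophage library, with a median log2 ratio of -0.11, where 0.859% of all genes were higher and 1.22% lower. Against the macrophage and DC library 0 of 23 were higher and 3 lower, with a median of -0.21, where 7.86% were higher and 4.29% lower. In other C1q-gated cells 12 of 21 were lower against the steady-state macrophage library, with a median of -1.21, where 1.51% of genes were higher and 2.3% lower. Against the macrophage and DC library, others had 4 of 20 lower and a median of -0.06, where 4.19% were higher and 2.16% lower, so the drop in others was seen against 1 of the 2 libraries. Vsig4 in members at day 11 was 0.955-fold (0.786 to 1.15) of the steady-state macrophage library and 0.413-fold (0.320 to 0.533) of the macrophage and DC library. Folr2 was 0.930-fold (0.882 to 0.979) and 0.878-fold (0.805 to 0.958).

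Some lipid-handling genes were higher at day 11 in members, and more of them in others. Of 15 measured genes of the list, 6 were at least 2-fold higher and 1 lower in members against the steady-state macrophage library, with a median of 0.70, where 0.859% of all genes were higher. In others 10 of 15 were higher, with a median of 1.37, where 1.51% were. Against the macrophage and DC library 8 of 14 were higher in members and 12 of 15 in others, with medians of 1.13 and 1.71, where 7.86 and 4.19% of all genes were. Trem2, a lipid-sensing receptor, stood at 704 CPM in members at day 11, against 275 CPM in the steady-state macrophage library and 214 CPM in the macrophage and DC library. In others it stood at 892 CPM, against 272 and 176 CPM. Cells failing the gate at day 11 held 430 CPM of Trem2, against 145 and 11.4 CPM, and the part of free RNA in the member values was not tested.

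Spp1, which encodes osteopontin, stood at 173 CPM in members at day 11, against 49.9 and 0 CPM in the steady-state libraries. In the steady-state macrophage library 1 cell held 118 of 226 UMIs, and without the top cell of each library the ratio was 5.82 in place of 3.47. Against the macrophage and DC library it was at least 20.8-fold higher, with the 0 set to 3 counts over the pool. Others held 887 CPM at day 11 and cells failing the gate 2365 CPM, both above the members, and failing cells held 1163 CPM in the steady-state macrophage library. Fabp5, a fatty acid carrier, stood at 82.8 CPM, against 29.6 and 8.32 CPM, where failing cells held 521 CPM, against 1223 and 72.5 CPM. Ms4a7, a macrophage membrane protein, stood at 1068 CPM, against 417 and 325 CPM, with 544 CPM in failing cells at day 11. Ctsd, a lysosomal protease, stood at 1403 CPM, against 699 and 516 CPM, but was 1.84-fold higher than in the steady-state macrophage library without the top cell of each library. Cd9, Clec4n, a fungal-sensing lectin, and Olfml3 were 2.29-fold, 2.24-fold and 2.77-fold higher than in that library, and failing cells at day 11 held 873, 563 and 35.5 CPM of them. Against the macrophage and DC library the log2 ratio of Cd9 was -0.19 with the member rule on thinned cells, the reverse of its direction here.

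Ccl8, a chemokine for monocytes and other leukocytes, was the gene of this set that stood highest above the failing cells. It stood at 489 CPM in members at day 11, against 180 and 150 CPM in the steady-state libraries, where failing cells held 23.4, 8.94 and 1.61 CPM. The top cell held 33.0% of its UMIs at day 11, and without the top cell of each library the ratios were 2.42 and 2.80. Irf7, a factor of the interferon response, stood at 141 CPM, against 70.6 and 16.6 CPM, and was 1.83-fold higher without the top cells. Golga3 and Prpf18 rested on single cells, with 55 of 61 and 24 of 50 UMIs at day 11 from 1 cell each.

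Retnla, which encodes the secreted protein RELM alpha of alternatively activated macrophages, had the largest fold of the 3 lower genes named. It stood at 394 CPM in members at day 11, against 1546 CPM in the steady-state macrophage library and 3789 CPM in the macrophage and DC library. The ratio was 0.255 (0.229 to 0.283) against the steady-state macrophage library and 0.104 (0.0925 to 0.117) against the macrophage and DC library. Of members, 18 of 86 held a Retnla UMI at day 11, against 317 of 341 and 40 of 55. After thinning this was 16.5% of members, against 64.8 and 57.7%, while cells failing the gate were at 2.36%, against 51.1 and 52.1%. Free RNA was not measured apart, so the steady-state shares are not read as expression.

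Retnla in others stood at 53.2 CPM at day 11, against 1023 and 7336 CPM. Members were 7.41-fold (6.62 to 8.27) higher than others at day 11, 1.51-fold (1.47 to 1.55) higher in the steady-state macrophage library and 0.517-fold of others (0.489 to 0.545) for the macrophage and DC library. Within day 11, Retnla stood at 21.3 CPM in cells with no Timd4 and no Ccr2. It stood at 86.6, 462 and 737 CPM in members with 2, 3 to 4 and at least 5 Timd4 UMIs, the last being 13 cells. Of the 376 Retnla UMIs in members at day 11, 96 came from 1 cell, and without it the level was 297 CPM. Stmn1, a microtubule protein of dividing cells, stood at 107 CPM, against 282 and 330 CPM, and the small heat shock protein Hspb1 at 41.9 CPM, against 85.2 and 175 CPM. In the macrophage and DC library 1 cell held 57 of 119 Stmn1 UMIs and 27 of 63 Hspb1 UMIs, and without the top cell these levels were 180 and 101 CPM. The 3 further lower entries were the unnamed Gm10020 and Gm8186 and the pseudogene Rpl36-ps3.

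**Figure D5:**
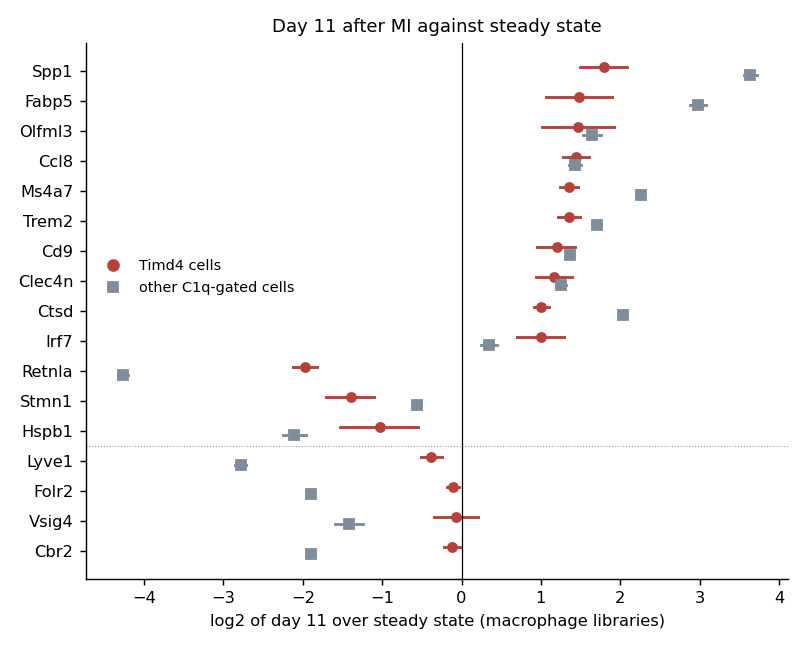
Log2 ratio of day 11 over the steady-state macrophage library (x axis) in Timd4 cells (circles) and other C1q-gated cells (squares), with exact 95% intervals of counting error, for named genes above the dotted line and the 4 further markers below it. Golga3 and Prpf18 are left out; Vsig4 lies near 0 in Timd4 cells and Retnla is low in both pools.

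The change at day 11 differed at least 2-fold between members and others, with both steady-state libraries, for 17 genes in 1 direction and 8 in the other, of 2756. In the first direction the 8 named were Retnla, Cyr61, Prpf18, Golga3, Pla2g2d, Iigp1, Fgfr1 and Tslp. Retnla was lower at day 11 in both pools, but less so in members. Cyr61, a matricellular protein, stood at 30.4 CPM at day 11 against 60.9 and 27.7 CPM in members, and 4.88 CPM against 34.2 and 22.6 CPM in others. Iigp1, an interferon-induced GTPase, stood at 75.5 CPM against 40 and 27.7 CPM in members, and 11.5 CPM against 21.2 and 13.9 CPM in others, with 38.9% of its member UMIs at day 11 in 1 cell. Pla2g2d, a secreted phospholipase, stood at 72.3 CPM at day 11 against 86.5 and 111 CPM in members, and 8.48 CPM against 61.5 and 42.2 CPM in others. Fgfr1, a fibroblast growth factor receptor, stood at 84.9 CPM against 99.8 and 128 CPM in members, and 8.77 CPM against 52.9 and 40.7 CPM in others. Tslp, a cytokine of type 2 immunity, stood at 67.1 CPM against 50.8 and 63.8 CPM in members, and 7.42 CPM against 29.5 and 20.4 CPM in others. Pla2g2d, Fgfr1 and Tslp stood within 2-fold of both steady-state libraries in members and below them in others. In the opposite direction, Gpnmb, a glycoprotein of lipid-laden macrophages, stood at 44.0 CPM against 9.49 and 0 CPM in members, and 179 CPM against 14.3 and 0.497 CPM in others. Acp5, an acid phosphatase, stood at 22.0 CPM against 12.8 and 11.1 CPM in members, and 72.9 CPM against 13.8 and 18.9 CPM in others.

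Cell division was read after thinning, as a cell with 3 or more detected genes out of 25 that mark the cycle. It held for 9.41% of members at day 11 (8 of 85; 4.15 to 17.7), against 9.97% in the steady-state macrophage library (34 of 341; 7.004 to 13.7) and 3.85% in wild-type hearts (2 of 52; 0.469 to 13.2), and the intervals overlapped. Others were at 6.49, 12.5 and 5.86%. By level, 4 of 13 cell cycle genes were at least 2-fold lower in members at day 11 than in the steady-state macrophage library and 0 higher, with a median of -0.81, where 1.22% of all genes were lower. Against the macrophage and DC library 8 of 14 were lower, with a median of -1.22, where 4.29% were. In that library 8 of 14 cell cycle genes were at least 2-fold higher in members than in others, with a median of 1.11. Over all genes there, 9.99% were higher and the median was 0.21. The share of cycling cells was no higher. The members of that library were 55 cells, and how far single cells set these levels was not tested. Top2a, a topoisomerase of dividing cells, stood at 11.5 CPM, against 44.1 and 30.5 CPM. Shares and levels thus did not point the same way, and no cycling is read from the shares alone.

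TdTomato RNA, read from the reporter entry, was found in 8.14% of members at day 11 (7 of 86; 3.34 to 16.1), against 16.1% in the steady-state macrophage library (55 of 341; 12.4 to 20.5). In other C1q-gated cells it was found in 1.41% (1.08 to 1.81), against 12.8% (11.1 to 14.7). Cells failing the gate had 0 of 267 at day 11, with an exact upper bound of 1.37%, and 1 of 45 at steady state. After thinning, 3 of 85 members at day 11 held it (3.53%; 0.734 to 9.97), against 2.35% (1.02 to 4.57) at steady state. Others were at 0.471% (0.288 to 0.726), against 3.69% (2.76 to 4.83). At day 11 the intervals of members and others did not overlap, though only 3 members held it after thinning, and at steady state they overlapped. EYFP was found in 20.9% of members and 25.8% of others at day 11, and in 30.8 and 42.2% at steady state, with 16.1 and 8.89% of failing cells. After thinning it was 4.71 and 10.4% at day 11, and 10.9 and 15.1% at steady state. Cx3cr1 RNA stood at 214 and 170 CPM in members of these libraries, against 234 and 258 CPM in others.

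Timd4 was also found outside the macrophage gate. In the macrophage and DC library 40 of 982 cells failing the C1q gate held at least 2 Timd4 UMIs, against 0 of 267 at day 11 and 1 of 45 in the steady-state macrophage library. Of those 40 cells, 82.5% held Xcr1 and 72.5% Clec9a, markers of type 1 conventional DCs, against 28.3 and 26.5% of failing cells without Timd4, and 0 held Lyve1. They are not among the members.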

How the data were processed

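Cells of 3 mouse heart libraries were counted with droplet 3′ chemistry (10x Chromium v2). The authors deposited whole-number UMI counts for each gene in each cell, made with Cell Ranger and STAR on mm10, per the submitters' processing notes. Their versions are not given in the sources used. The 27998 entries were joined to 27933 symbols, and 3 reporter entries were kept apart. Libraries held 4697 barcodes at day 11, against 1806 and 1780, with 45177529, 23711707 and 14388327 UMIs, and 4673, 1767 and 1767 cells passed the filters.

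The members and gene lists were chosen with earlier results of these data known. For each pool of cells, UMIs were added up and divided by the pool total without reporters, as CPM. Ratios have exact conditional binomial intervals and shares exact Clopper-Pearson intervals, 95% each, and intervals treat UMIs as independent molecules. Because each group has 1 library, no test across samples was made. A pool at 0 was set to 3 counts to bound a ratio. Calls added 0.5 UMI to each sum. Genes were named when at least 50 CPM in either pool and at least 2-fold different in every library, the 15 largest per direction; against both steady-state libraries for day 11, the 12 largest; and by the ratio of these ratios, the 8 largest. Mitochondrial, ribosomal, haemoglobin, immunoglobulin and unnamed genes were left out. List values use genes of at least 20 CPM. Of the lists, 19 were functional and 15 were markers. Doublets were not removed, since the member rule has no such step. Scrublet (scanpy 1.11.5) marked the top scores, 0.8% per 1000 cells, as an alternative; its own threshold marked 0, 1 and 2 cells. Gene names are from the files and promoters from RefSeq. The calls were run on simulated counts with 4-fold changes and no spread between cells. In both comparisons all 100 raised and 100 lowered genes were called, and 0 unchanged genes. This does not cover changes near 2-fold or genes with most UMIs in 1 cell. Python 3.11.15, numpy 2.4.6, scipy 1.17.1 and pandas 2.3.3 were used.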

Additional observations from a re-analysis of the deposited data

Results flagged for a closer look

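Ctsd, the gene of the lysosomal protease cathepsin D, moved in opposite directions in members against other C1q-gated cells at day 11 and at steady state. Members were at 0.642-fold of the others at day 11 (counting interval 0.608 to 0.678), against 1.31-fold in the steady-state macrophage library (1.26 to 1.36) and 1.61-fold in the macrophage and DC library (1.37 to 1.88). With 1 library per group, the difference itself was not tested.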

How the results depend on the processing

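No paired analysis was possible because each group has 1 library, and for the same reason no replicate was left out. Of 173 recomputed counts, shares and list medians, 108 stayed within the set range of the reported value, and of 592 recomputed values of single genes 375 did; the cause of the others was not tested unless stated.

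Counts of genes higher and lower in members than in others, 7 and 7 as reported, were 11 and 11 with at least 3 Timd4 UMIs, 13 and 12 with at least 2 Timd4 UMIs per 10000, 11 and 12 without cells above 2.5 times the median depth, 26 and 19 against others without Timd4, 15 and 19 as a mean over cells, 49 and 34 at a fold of 1.5, and 1 and 1 at a fold of 3. Added after seeing the data were 20 and 14 against others with fewer than 2 Timd4 UMIs, 22 and 19 in cells of 5000 to 15000 UMIs, and 69 and 30 without the steady-state macrophage library. The lower count alone became 3 with at least 1 Timd4 UMI, 2 against others without Ccr2, 18 and 4 with the CPM minimum halved and doubled, 12 when scaled by the median ratio, and, added later, 0 without the Ccr2 condition. Also added later, it became 14 without the top member cell of each gene. That step took UMIs from members only, so it could only lower their levels.

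Counts higher and lower at day 11, 12 and 3 among genes the naming rule kept, were 55 and 17 with the rule on thinned cells, 26 and 15 with the CPM minimum halved, 45 and 28 at a fold of 1.5, 3 and 1 at a fold of 3, and, added later, 20 and 5 without the Ccr2 condition. The lower count alone became 7 with at least 3 Timd4 UMIs, 8 at 5% mitochondrial UMIs, 5 when scaled and 6 without the top cell.

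Shares of members at day 11, in the steady-state macrophage library and in the macrophage and DC library were 4.68, 30.4 and 15.8% with at least 1 Timd4 UMI, 1.16, 12.95 and 4.46% with at least 3, and 0.693, 6.89 and 4.27% after thinning. They were 15.3 and 11.2% in the steady-state libraries per 10000 UMIs, 22.0 and 10.6% in cells of 5000 to 15000 UMIs, and 3.27 and 36.2% at day 11 and in the steady-state macrophage library without the Ccr2 condition. Day 11 was lowest in each of the first 3. Cycling members of the steady-state macrophage library were 21.1% with at least 2 cell cycle genes and 6.74% with at least 4.

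As a mean over cells, the MHC class II median was -0.45 and -0.86 for day 11 over the steady-state libraries, and -1.29 and -1.10 for members over others at day 11 and in the steady-state macrophage library, and the resident median 2.27 and 0.93. The resident median at day 11 was 1.94 with the CPM minimum doubled. Cd9 in members at day 11 over the macrophage and DC library reversed to -0.19 with the rule on thinned cells. Counts of UMIs limit the members at day 11, with 86 cells, and in the macrophage and DC library, with 55 cells of a median of 6255 UMIs.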
